A study of Mus musculus with 18 samples.

Results

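The 6 libraries described here, of 18 in the series, are RNA sequencing libraries of mouse CD8+ T cells that had received a guide RNA against Nur77 and then spent a night in 50 or 10 µM lithocholic acid (LCA). They were chosen by their titles, 3 as cells in 50 µM LCA and 3 as cells in 10 µM LCA, and every gene was considered, of which 11651 of 24537 in the table had enough counts to be tested. Naive CD8+ T cells were given a CRISPR ribonucleoprotein with a Synthego guide kit against Nur77 (labelled KO) or a scrambled guide (labelled WT). They were then activated with antibodies to CD3 and CD28. The groups used here are Nur77-guide cells in 50 µM LCA (LCA50 cells), in 10 µM LCA (LCA10 cells) and without LCA (control cells), and scrambled-guide cells in 50 and 10 µM LCA, with 3 libraries each. LCA50 and LCA10 cells thus share isolation, guide and activation and, as far as the labels say, differ in dose alone. The labels used here state neither the strain, age and sex of the mice nor the share of cells edited. They also do not say whether libraries of a group came from separate mice or cultures, so each p-value reflects how far these libraries spread, and that spread may be technical. Libraries were numbered group by group, so anything that followed that order cannot be told apart from the dose.

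LCA is a secondary bile acid that gut bacteria make from a primary bile acid of the liver, and it can bind host receptors including the vitamin D receptor and the membrane receptor TGR5. Nur77, encoded by Nr4a1, is an orphan nuclear receptor whose gene is switched on within hours of T cell receptor signalling. Type I interferon signals through the kinases JAK1 and TYK2 to a complex that contains STAT2 and IRF9 and binds the interferon-stimulated response element (ISRE) upstream of antiviral genes. The integrated stress response acts through the transcription factor ATF4, which drives genes of amino acid synthesis and uptake.

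Total counts per library ran from 4113713 to 5144994 in LCA50 cells and from 4507973 to 5312152 in LCA10 cells. Replicate 1 of the LCA50 cells stood apart: on the first principal component of the 6 libraries (35.8% of the variance) it sat at -45.8, and the other 5 between 1.11 and 15.8. Counts of olfactory, vomeronasal and trace amine receptor genes, which T cells are not expected to use, came to 164, 47.2 and 93.4 CPM (counts scaled to a library total of 1000000) in LCA50 replicates 1, 2 and 3, against 75.2, 85.0 and 64.8 in the LCA10 libraries. Each of the 6 libraries was left out in turn, and calls that ended are given by gene. Transcripts of CD8 T cell markers summed to between 3531 and 4222 CPM in LCA50 cells and between 3978 and 4301 in LCA10 cells. Those of B cells summed to at most 8.75 in LCA50 and 9.76 in LCA10 libraries, and those of myeloid cells to at most 32.8 in LCA50 and 30.9 in LCA10 libraries. Natural killer and gamma delta T cell markers summed to at most 1.46 in LCA50 and 0.887 in LCA10 libraries. CD4 T cell markers summed to between 176 and 212 CPM in LCA50 and between 204 and 227 in LCA10 libraries. Red cell and platelet markers summed to between 4.66 and 8.02 in LCA50 and between 5.32 and 22.3 in LCA10 libraries. No tested marker of CD8 or CD4 T cells, B cells, myeloid cells, red cells or platelets passed edgeR's quasi-likelihood test in this comparison. Of these markers 3 had an unadjusted p below 0.05, against 1428 of all 11651 tested genes.

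Nr4a1 itself (chromosome 15, 101254269 to 101274795, GRCm38) had 15.7, 7.53 and 7.07 CPM (here and below on library sizes scaled between samples) in LCA50 cells, against 10.7, 9.92 and 9.08 CPM in LCA10 cells. The 2 groups overlapped, with both the highest and the lowest values in LCA50 cells. The log2 fold change was 0.01 ± 0.34 (standard error), with an adjusted p of 0.993 by edgeR's quasi-likelihood test. A guide leaves small insertions and deletions that need not lower the count of a transcript, so these values do not check the label.

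In 50 µM LCA, 13 of 30 listed interferon response genes of the Nur77-guide cells were lower than in 10 µM LCA, and 8 of 44 listed ATF4 targets were higher. By edgeR's quasi-likelihood test with Benjamini-Hochberg adjustment below 0.05, 161 of 11651 genes changed (1.38%): 54 were higher (0.463%) and 107 lower (0.918%) in LCA50 than in LCA10 cells. Changes of at least 2-fold were found in 6 genes that rose and 16 that fell, and the median log2 fold change over all tested genes was 0.00. Of the 161 genes, 159 had no overlap between the 3 LCA50 and the 3 LCA10 libraries. Over all genes, 7.13% had every LCA50 library above every LCA10 library and 7.34% had every one below. A lower value in these bulk libraries can come from fewer cells that express a gene or from less RNA per cell, which cannot be told apart. Of the 161 genes, 34 passed whichever of the 6 compared libraries was left out. Without LCA50 replicate 1 the count was 73, and it was 60 without LCA10 replicate 1 and 271 without LCA50 replicate 2. With only the 6 compared libraries in the fit it was 28, and with the receptor background of each library as a covariate it was 165.

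**Figure D1:**
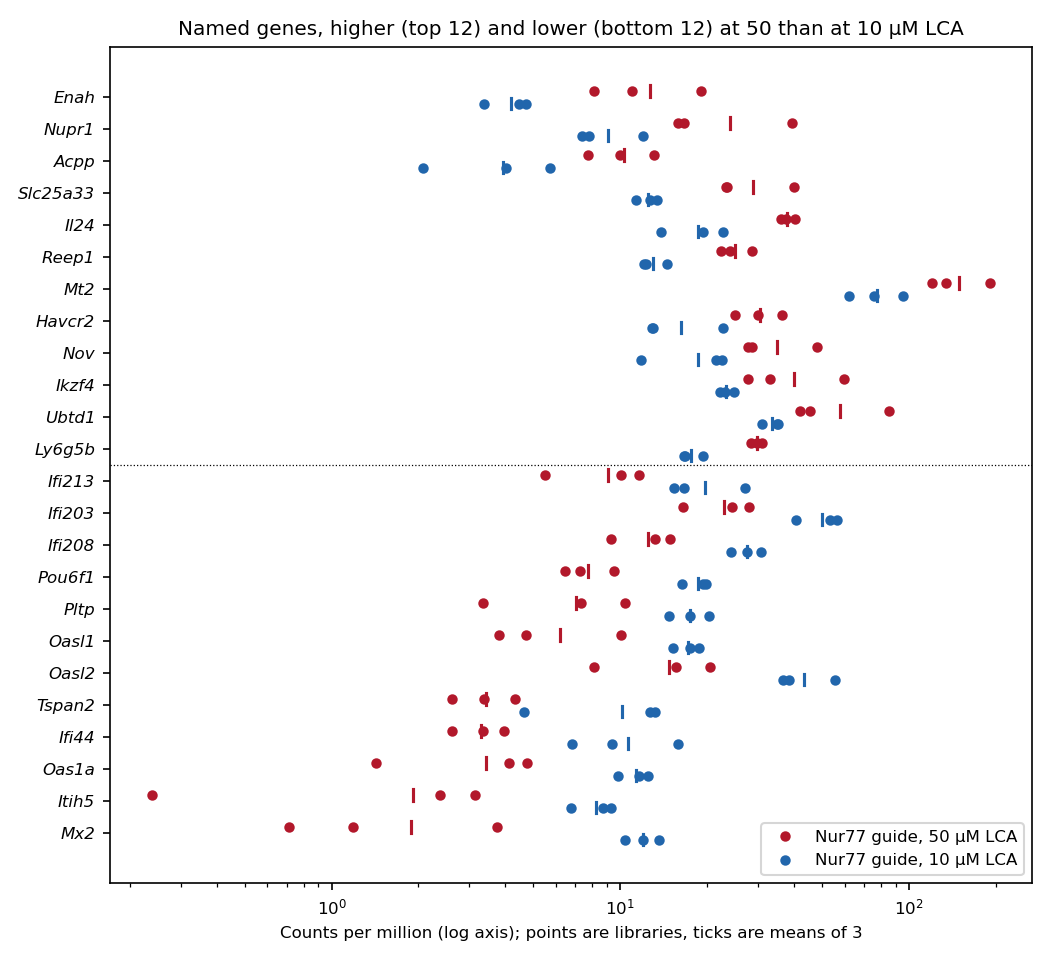
The 12 named genes with the highest and the 12 with the lowest log2 fold change between 50 and 10 µM LCA in Nur77-guide cells, as CPM on a log axis. Each point is a library (50 µM LCA above 10 µM LCA for each gene) and each tick the mean of 3. Genes were named only if the libraries of the 2 doses did not overlap, so all 24 are separated. The gap for Tspan2 runs between 4.32 and 4.64 CPM.

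Of the 30 genes in the interferon response list, 13 fell and none rose, against 0.918% of all tested genes that fell. The median log2 fold change of the list was -0.76, every one of its 30 values was below 0 (from -2.62 to -0.15), and in 27 of the 30 each LCA50 library was below each LCA10 library. The list was drawn up with earlier results of these data known, so its direction is a description. The 13 that fell were Mx2, Oas2, Oas1a, Ifi44, Oasl2, Oasl1, Isg15, Rtp4, Stat2, Oas3, Bst2, Igtp and Irf1. LCA50 replicate 1 was the lowest of the 3 LCA50 libraries in 28 of the 30 genes. Without it 5 genes fell, with a median of -0.62, without LCA10 replicate 1 or 2 there were 6, and with only the compared libraries in the fit there were 6.

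At the head of the pathway, the median log2 fold change of 15 tested genes for ligands, receptors and signalling was -0.16. Stat2, whose protein is part of the complex that binds the ISRE (chromosome 10, 128270559 to 128292849), had 128, 147 and 170 CPM in LCA50 cells, against 209, 231 and 220 CPM in LCA10 cells. The LCA50 libraries all lay below the LCA10 libraries, and the log2 fold change was -0.57 ± 0.09 (adjusted p 0.00112, edgeR). Irf9, whose protein binds DNA in the same complex, stood at -0.29 ± 0.11 and did not pass (adjusted p 0.200). Irf1, an interferon-induced transcription factor, fell by 0.27 ± 0.07, and Irf7, the factor that amplifies type I interferon, stood at -1.25 ± 0.29 with an adjusted p of 0.0523. Of the 15 genes 3 fell and none rose, against 0.918% of all tested genes that fell. The third was Ifngr1, a chain of the interferon gamma receptor, at -0.38 ± 0.09 (adjusted p 0.0416, edgeR). By edgeR, 7 of the 15 had an unadjusted p below 0.05, against 1428 of all 11651 tested genes. In 8 of the 15 every LCA50 library was below every LCA10 library, against 7.34% of all tested genes. The type I receptor chains Ifnar1 and Ifnar2 stood at -0.14 ± 0.08 and -0.16 ± 0.08, neither past the threshold. Stat2 passed without any single library, while the call of Irf1 ended without LCA50 replicate 1 or any LCA10 replicate (adjusted p from 0.0588 to 0.187, edgeR) and that of Ifngr1 without LCA50 replicate 1 or LCA10 replicate 1 or 3 (0.193 to 0.208). Ifng, the one ligand tested, had 21, 8.72 and 5.50 CPM in LCA50 cells, against 5.14, 5.91 and 7.38 CPM in LCA10 cells, and the groups overlapped.

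Several effector genes differed more. Mx2 belongs to the antiviral dynamin-like GTPases (chromosome 16, 97535308 to 97560900). GENCODE M21 annotates it as a polymorphic pseudogene, so its transcript need not give a working protein. It had 0.715, 1.19 and 3.73 CPM in LCA50 cells, against 13.6, 12 and 10.4 CPM in LCA10 cells. All LCA50 values were below all LCA10 values, and the log2 fold change of -2.62 ± 0.48 (adjusted p 0.00357, edgeR) was the lowest of any gene that passed. Rtp4, an interferon-induced chaperone of membrane receptors (chromosome 16, 23520291 to 23614222), had 29.8, 45.4 and 39.3 CPM in LCA50 cells, against 80.2, 82.9 and 60.7 CPM in LCA10 cells. It fell by 0.96 ± 0.17 (adjusted p 0.00256). Isg15, a ubiquitin-like modifier (chromosome 4, 156199424 to 156200818), had 21.7, 25.2 and 23 CPM in LCA50 cells, against 44.7, 64.6 and 32.9 CPM in LCA10 cells. The LCA10 libraries spread widely but none came down to the LCA50 values, and Isg15 fell by 1.02 ± 0.25 (adjusted p 0.0386). Bst2, the tether that holds budding virus at the cell surface, fell by 0.43 ± 0.09 (adjusted p 0.0100). Mx2 and Rtp4 passed without any single library. Isg15 kept its call only without LCA10 replicate 3 (adjusted p up to 0.157, edgeR), Bst2 lost it without LCA50 replicate 1 or LCA10 replicate 2 (up to 0.102), and Ifi44 lost it in 4 of the 6 omissions (up to 0.191).

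In the oligoadenylate synthetase family, whose enzymes respond to double-stranded RNA, 5 of 7 tested members fell, none rose and the median was -1.45. The share of all tested genes that fell was 0.918%. Oas1a had 1.43, 4.75 and 4.12 CPM in LCA50 cells, against 11.6, 12.5 and 9.84 CPM in LCA10 cells, a log2 fold change of -1.68 ± 0.33 (adjusted p 0.00545, edgeR). Its groups did not overlap, and it passed without any single library of the 6. Oas2 fell by 2.22 ± 0.56, Oasl2 by 1.54 ± 0.34 and Oasl1 by 1.45 ± 0.31, and the most abundant member, Oas3, fell by 0.55 ± 0.13. Oasl1 missed the threshold without LCA50 replicate 1 (-1.21, adjusted p 0.0584). Oasl2 kept its direction but missed the threshold when LCA50 replicate 1 or 2 or any LCA10 replicate was left out, with adjusted p from 0.0605 to 0.101. The same 5 omissions ended the call of Oas2 (up to 0.214), and that of Oas3 ended in all but the omission of LCA50 replicate 2 (up to 0.134).

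Several other effector genes had every LCA50 library below every LCA10 library and did not pass the test. Ifit1, which binds viral RNA, had 9.53, 33.5 and 30.8 CPM in LCA50 cells, against 67.9, 69.0 and 57.3 CPM in LCA10 cells (log2 fold change -1.37 ± 0.48, adjusted p 0.232). Ifit3 stood at -1.33 ± 0.51 and Usp18, a brake on the type I receptor that also removes Isg15, at -1.18 ± 0.33. The guanylate-binding proteins Gbp4 and Gbp5 of the list stood near 0, at -0.18 and -0.19.

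**Figure D2:**
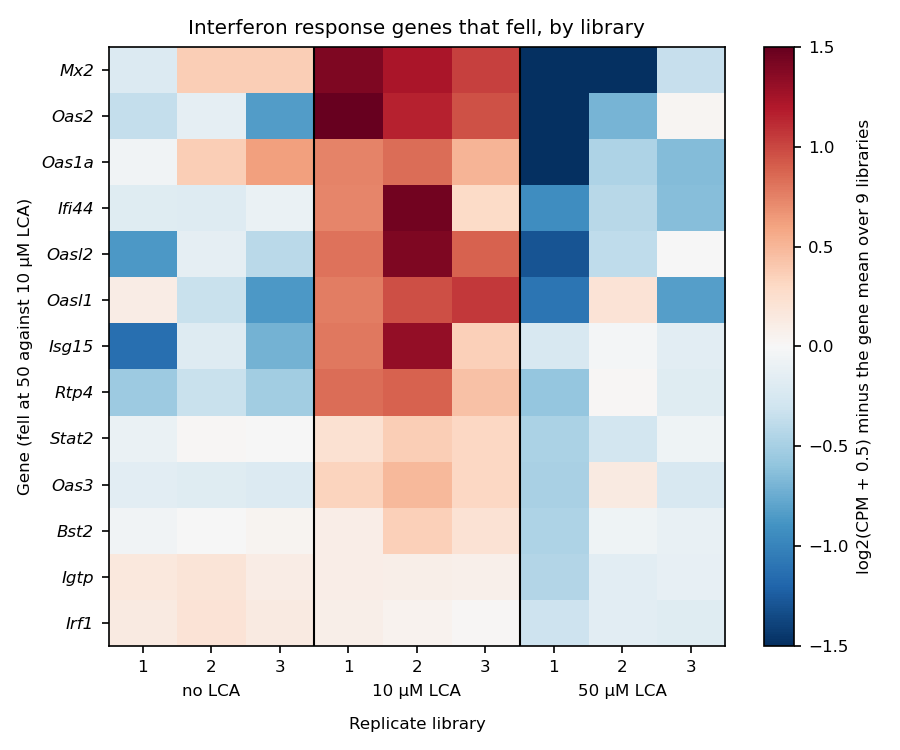
The 13 genes of the interferon response list that fell (down the page, ordered by the log2 fold change between 50 and 10 µM LCA) in the 9 Nur77-guide libraries (columns, by LCA dose). Colour gives log2(CPM + 0.5) minus the gene's mean over the 9 libraries, with colours saturated at 1.5 either way. Igtp and Irf1 have their highest mean without LCA and the other genes shown at 10 µM LCA.

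The region upstream of several of these genes holds the letters of an ISRE. The pattern TTTC, any 2 bases and TTTC again, searched on both strands in the 250 bases before the RefSeq start (GRCm38.p6) and with overlapping matches counted, was present in 3.04% of 27025 promoters and in 2.83% of those of tested genes. It was present in 21 of the 84 genes that fell and have an entry (25%), in 1 of 45 that rose (2.22%), and in 13 of 22 of the interferon list (59.1%). A match describes the letters and not binding. The promoters of 4 genes that fell are given 5′ to 3′ on the strand of the gene, because they show where these letters sit, with matches in capitals. A match on the other strand reads GAAA, any 2 bases and GAAA. Distances, here and below, count the bases between a match and the start. Isg15 (chr4:156200819-156201068, minus strand) has 3 overlapping matches at 56 to 68 bases. Stat2 (chr10:128270248-128270497, plus strand) has 1 match, at 212 bases. Oas1a (chr5:120907526-120907775, minus strand) has 2, at 4 and 10 bases, and Bst2 (chr8:71537473-71537722, minus strand) has 2, at 114 and 120 bases.
Isg15: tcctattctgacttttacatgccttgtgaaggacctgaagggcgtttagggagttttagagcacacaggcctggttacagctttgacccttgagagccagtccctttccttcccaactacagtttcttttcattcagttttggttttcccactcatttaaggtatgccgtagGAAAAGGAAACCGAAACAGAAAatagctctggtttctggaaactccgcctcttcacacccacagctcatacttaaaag
Stat2: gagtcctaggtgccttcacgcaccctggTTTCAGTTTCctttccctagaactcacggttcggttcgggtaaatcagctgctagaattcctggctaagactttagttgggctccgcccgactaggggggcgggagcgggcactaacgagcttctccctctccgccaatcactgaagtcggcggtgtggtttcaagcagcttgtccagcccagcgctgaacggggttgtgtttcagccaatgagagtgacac
Oas1a: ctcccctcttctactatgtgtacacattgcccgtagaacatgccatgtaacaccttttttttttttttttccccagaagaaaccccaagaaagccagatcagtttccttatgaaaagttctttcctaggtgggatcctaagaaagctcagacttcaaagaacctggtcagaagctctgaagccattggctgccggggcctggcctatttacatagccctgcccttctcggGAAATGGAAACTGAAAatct
Bst2: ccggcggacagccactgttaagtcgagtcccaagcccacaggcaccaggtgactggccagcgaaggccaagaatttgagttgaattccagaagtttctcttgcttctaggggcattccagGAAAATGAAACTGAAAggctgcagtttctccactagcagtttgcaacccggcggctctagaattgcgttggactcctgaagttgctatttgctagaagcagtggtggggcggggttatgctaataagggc
Of the 13 genes of the interferon list that fell, 10 have an entry and 6 of these a match, Oas3 and Igtp included. Mx2, Oas2 and Rtp4 have no entry. Oasl1, Oasl2, Ifi44 and Irf1 also fell and had no match in this window, which says only that these letters are not in it.

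Sensors of foreign nucleic acid, many of them interferon-induced themselves, were also among the genes that fell. The families of sensors, signalling parts, synthetases, PYHIN, GTPase, TRIM, PARP, Schlafen, GIMAP, MHC class I and metal genes were assembled after the called genes had been seen, so their counts are descriptions. Some genes are in more than 1 family, so the family counts are not separate. Over all tested genes 0.918% fell and 0.463% rose. Of 20 tested sensors and adaptors, 11 fell and none rose (median -0.51), the synthetases Oas1a, Oas2 and Oas3 among them. Dhx58, which encodes the RNA helicase LGP2, had 23.6, 34.5 and 34.4 CPM in LCA50 cells, against 68.6, 79.6 and 50.3 CPM in LCA10 cells (log2 fold change -1.09 ± 0.18, adjusted p 0.00174, edgeR). Its LCA50 libraries were all below its LCA10 libraries. Ifih1, the gene of the RNA sensor MDA5, fell by 0.87 ± 0.18, and Ddx58, that of RIG-I, by 0.56 ± 0.13. Trim25, a ubiquitin ligase for RIG-I, fell by 0.62 ± 0.11, Eif2ak2, the kinase PKR, by 0.52 ± 0.14, and Nod1, a sensor of bacterial cell wall, by 0.52 ± 0.13. The RNA-editing enzyme Adar fell by 0.48 ± 0.09 and the dNTP hydrolase Samhd1 by 0.40 ± 0.08. Dhx58, Trim25, Adar and Samhd1 passed without any single library. Ifih1 missed without LCA10 replicate 2 (adjusted p 0.0550, edgeR), Ddx58 in 3 of the 6 omissions (up to 0.0918), Nod1 in 4 (up to 0.328) and Eif2ak2 in all 6 (0.0761 to 0.228).

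In the PYHIN family of DNA-binding proteins, encoded side by side on chromosome 1, 5 of 9 tested members fell and none rose (median -0.65). Here and for the families below, the share of all tested genes that fell was 0.918%. Ifi203 had 16.4, 27.9 and 24.3 CPM in LCA50 cells, against 56.5, 53.4 and 40.5 CPM in LCA10 cells, and fell by 1.11 ± 0.16 (adjusted p 0.000102, edgeR). Ifi208 had 9.30, 14.9 and 13.2 CPM in LCA50 cells, against 24.1, 27.4 and 30.6 CPM in LCA10 cells, and fell by 1.13 ± 0.20 (adjusted p 0.00256). Both were separated and passed without any single library, while Ifi213, at -1.10 ± 0.25, did not pass without LCA50 replicate 1 or LCA10 replicate 1 (adjusted p 0.136 and 0.193). Ifi209 and Mndal were the others that fell, and missed in 2 and 3 of the 6 omissions. Exons of Ifi203 and Mndal overlap, so the values of that pair are uncertain. Of 18 guanylate-binding and immunity-related GTPases, which act against intracellular pathogens, 6 fell and none rose (median -0.33). Those were Gvin1, Gbp9, Irgm2, Iigp1, Gbp7 and Igtp, the last by 0.32 ± 0.07. Irgm2, Iigp1 and Gbp7 passed without any single library, Gbp9 and Gvin1 missed in 1 omission each and Igtp in 2. Exons of Igtp overlap those of Irgm2 on the same strand, and exons of Gbp9 those of Gbp4 and Gbp8, so these values are uncertain too. Gvin1 has counts identical to those of the predicted gene Gm4070, also called, so the pair is 1 measurement. Of the other families, 4 of 38 TRIM genes, 2 of 12 PARP genes (Parp12 and Parp9) and 2 of 6 Schlafen genes (Slfn8 and Slfn1) fell, and none of these families had a member that rose. Parp9 passed without any single library, Parp12 and Slfn8 missed in 1 omission each and Slfn1 in 4. Exons of Parp9 overlap those of Dtx3l on the other strand, and Dtx3l also fell, by 0.33.

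Genes of antigen presentation by MHC class I are another target of interferon. Of 18 tested genes 1 fell and 5 had an unadjusted p below 0.05, against 1428 of all 11651 tested genes. H2-T23, the ligand of the inhibitory receptor NKG2A, fell by 0.39 ± 0.08 (adjusted p 0.00995, edgeR), and it missed without LCA10 replicate 1 or 2 (up to 0.0999). The median of the 18 was -0.07. H2-Q7, H2-Q6 and H2-T22, non-classical heavy chains, stood at -0.31, -0.27 and -0.22 with every LCA50 library below every LCA10 library and did not pass (adjusted p 0.0750, 0.147 and 0.242). H2-Q6 and H2-Q7 are near-identical copies, so their values are uncertain. The classical heavy chains H2-K1 and H2-D1 stood at -0.03 ± 0.06 and -0.01 ± 0.06 and B2m, their light chain, at 0.00 ± 0.06. B2m had 2564, 2599 and 2604 CPM in LCA50 cells, against 2683, 2719 and 2343 CPM in LCA10 cells, with the LCA50 values inside the LCA10 range.

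Against cells without LCA, most interferon genes had their highest mean at 10 µM: in 25 of the 30 listed genes the LCA10 mean was above both others. The comparisons that follow share libraries with the first one, and values are set side by side only. Rtp4 had 30.6, 35.5 and 30.9 CPM in control cells, 80.2, 82.9 and 60.7 CPM in LCA10 cells, and 29.8, 45.4 and 39.3 CPM in LCA50 cells. It rose by 1.20 ± 0.17 in LCA10 against control cells (adjusted p 0.000250, edgeR) and stood at 0.25 ± 0.17 in LCA50 against control cells (adjusted p 0.486). Isg15 had 11.5, 22.4 and 15.6 CPM in control cells, 44.7, 64.6 and 32.9 CPM in LCA10 cells, and 21.7, 25.2 and 23 CPM in LCA50 cells. Its log2 fold changes were 1.52 ± 0.25 for LCA10 and 0.50 ± 0.27 for LCA50 against control cells, the first past the threshold and the second not. Stat2 had 167, 180 and 177 CPM in control cells, below every LCA10 library and, in 2 of the 3, above every LCA50 library.

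Over the interferon list, 3 of 30 genes rose and none fell in LCA10 against control cells (median 0.53), where 38 of 11651 genes were called (0.326%), 24 higher (0.206%) and 14 lower (0.12%). In LCA50 against control cells, 6 of 30 fell and none rose (median -0.23), where 740 genes were called (6.35%), 341 higher (2.93%) and 399 lower (3.42%). By means, 25 of the 30 were higher in LCA10 than in control cells and 23 of the 30 lower in LCA50 than in control cells. Among all 107 genes that fell between LCA10 and LCA50 cells, 58 had an LCA10 mean above and an LCA50 mean below the control mean, 44 had an LCA10 mean at or below it, and 5 had an LCA50 mean that was not below it. Of the 107, 67 were also lower in LCA50 than in control cells by the test. The 54 genes that rose had another order: in 41 the LCA10 mean was at or above the control mean, and 51 were also higher in LCA50 than in control cells.

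Genes that fell at each step included Gimap3, a member of the GIMAP family of lymphocyte GTPases (chromosome 6, 48764464 to 48770851). It had 497, 509 and 524 CPM in control cells, 381, 348 and 400 CPM in LCA10 cells, and 260, 289 and 283 CPM in LCA50 cells. No 2 of the 3 groups overlapped, and the log2 fold changes were -0.44 ± 0.07 in LCA50 against LCA10 cells (adjusted p 0.00112, edgeR) and -0.44 ± 0.07 in LCA10 against control cells. Of 8 tested GIMAP genes 2 fell between LCA10 and LCA50 cells (Gimap3 and Gimap8, the second by 0.56 ± 0.13), against 0.918% of all tested genes. None of the 8 rose, and all 8 values were below 0 (median -0.47). Gimap3 passed without any single library and Gimap8 missed in 4 of the 6 omissions (adjusted p up to 0.163, edgeR).

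**Figure D3:**
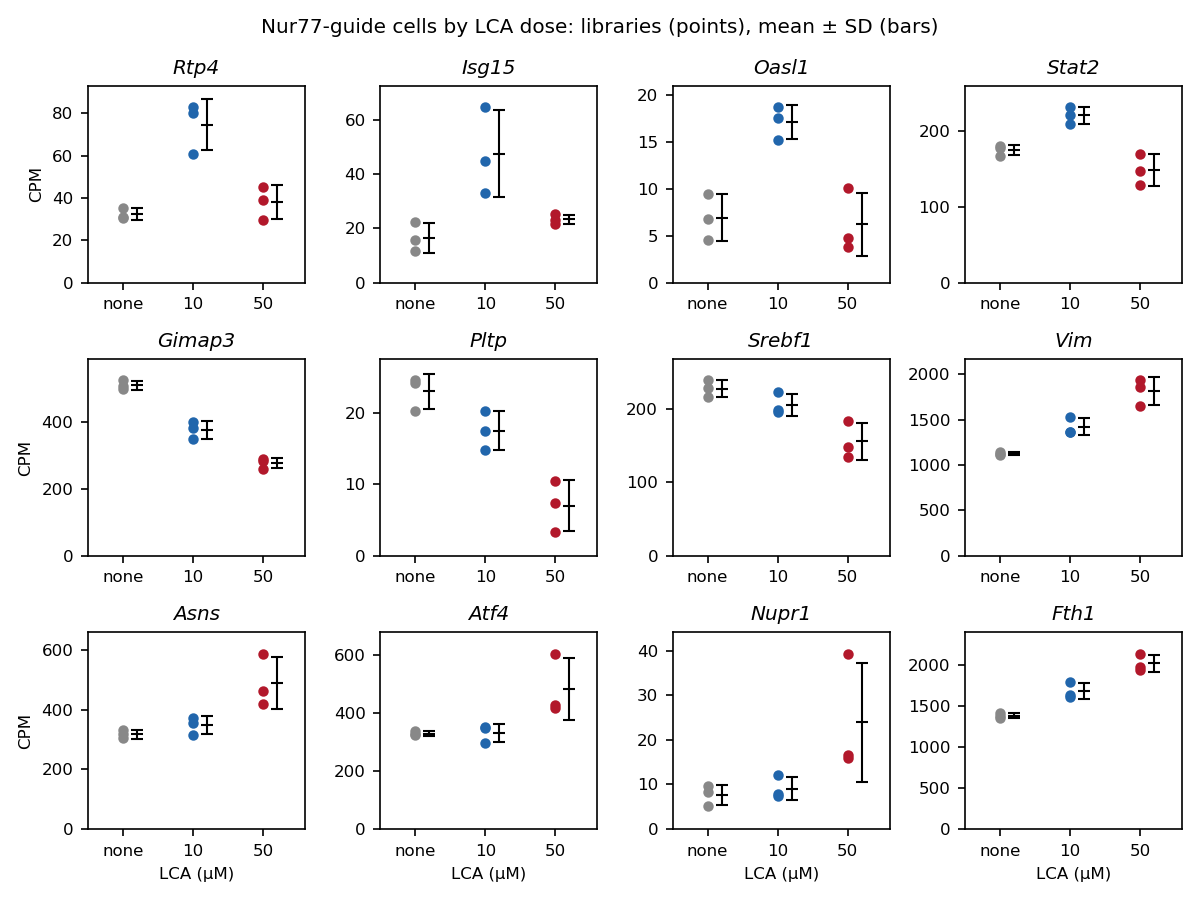
CPM of 12 genes in Nur77-guide cells against LCA dose (none, 10 and 50 µM). Points are libraries and bars the mean ± SD of 3, on axes that start at 0, and Rtp4, Isg15, Oasl1 and Stat2 are highest at 10 µM while Gimap3 has 3 groups that do not overlap.

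On the other side, ATF4 target genes were the list with the most members that rose. Of 44 tested members 8 rose and none fell, against 0.463% of all genes that rose, the median log2 fold change was 0.35, and 43 of 44 values were above 0. In 26 of 44, each LCA50 library was above each LCA10 library. Atf4 itself (chromosome 15, 80255184 to 80257541) had 605, 415 and 429 CPM in LCA50 cells, against 348, 352 and 296 CPM in LCA10 cells, and rose by 0.54 ± 0.10 (adjusted p 0.00672, edgeR). Asns, asparagine synthetase (chromosome 6, 7675169 to 7693254), had 589, 462 and 421 CPM in LCA50 cells, against 373, 357 and 317 CPM in LCA10 cells, and rose by 0.49 ± 0.09 (adjusted p 0.00489). In both genes LCA50 replicate 1 was the highest of the 6 libraries and the groups did not overlap. Asns passed without any single library and Atf4 missed without LCA10 replicate 3 (0.46, adjusted p 0.0508).

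The other 6 members that rose included 5 that act in amino acid synthesis, folate metabolism, charging or uptake. Psat1 makes serine and rose by 0.28 ± 0.07, the mitochondrial folate enzyme Mthfd2 by 0.35 ± 0.08 and the seryl-tRNA synthetase Sars by 0.35 ± 0.07. The transporters Slc1a5, for glutamine, and Slc3a2, the heavy chain of large neutral amino acid carriers, rose by 0.33 ± 0.08 and 0.28 ± 0.07. All 5 missed without LCA50 replicate 1 (Sars at 0.24 with an adjusted p of 0.0868 by edgeR), and all but Sars also without LCA10 replicate 1, with adjusted p up to 0.229 among the 5. Nupr1, a stress-induced chromatin protein, had 39.3, 15.8 and 16.7 CPM in LCA50 cells, against 7.82, 12 and 7.38 CPM in LCA10 cells (log2 fold change 1.39 ± 0.33, adjusted p 0.0246, edgeR). LCA50 replicate 1 gave the highest value, and without it the change was 0.84 with an adjusted p of 0.284; it also missed without LCA10 replicate 1 or 3. The same library was far above the others in members that did not pass: Cth, which makes cysteine, had 123, 23.4 and 24.7 CPM in LCA50 cells, against 10.5, 11.6 and 10.8 CPM in LCA10 cells, with an adjusted p of 0.0756 by edgeR. Trib3, a brake on ATF4, had 410, 139 and 121 CPM in LCA50 cells, against 85.8, 105 and 75.7 CPM in LCA10 cells (adjusted p 0.127). Without LCA50 replicate 1, 4 ATF4 targets rose and the median was 0.18. There were 4 without LCA10 replicate 1, 3 without LCA10 replicate 3, 19 without LCA50 replicate 2 and 16 without LCA50 replicate 3. DESeq2 on all 18 libraries called 16, and with only the 6 compared libraries in the edgeR fit none of the 8 passed.

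ATF4 pairs with C/EBP proteins on a composite element, searched here as TGATGNAA in the same windows on both strands. It was present in 3.53% of all promoters, in 1.88% of those of tested genes, in 3 of the 45 genes that rose (6.67%) and in 4 of the 84 that fell (4.76%). In the ATF4 list it was present in 8 of 36 (22.2%) and in 2 of the 7 that rose and have an entry. These are shown because both genes rose, with the match in capitals. Asns (chr6:7693210-7693459, minus strand) has it 15 bases from the start, and Nupr1 (chr7:126625471-126625720, minus strand) has it on the other strand at 102 bases.
Asns: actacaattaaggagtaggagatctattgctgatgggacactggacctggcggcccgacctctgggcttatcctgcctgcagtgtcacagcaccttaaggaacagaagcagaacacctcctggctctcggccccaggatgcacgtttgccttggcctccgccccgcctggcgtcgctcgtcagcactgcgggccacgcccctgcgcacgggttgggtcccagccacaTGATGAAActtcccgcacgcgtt
Nupr1: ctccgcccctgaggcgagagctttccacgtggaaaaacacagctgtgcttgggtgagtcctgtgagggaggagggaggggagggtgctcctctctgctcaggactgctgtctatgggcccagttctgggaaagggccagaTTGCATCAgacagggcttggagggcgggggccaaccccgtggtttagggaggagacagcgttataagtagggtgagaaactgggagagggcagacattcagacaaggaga

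Of 13 tested metallothionein, ferritin and iron uptake genes 4 rose and 1 fell, against 0.463% and 0.918% of all tested genes. The median of the 13 was 0.01 and 7 values were above 0. In scrambled-guide cells none of the 13 was called. Mt1, a metallothionein, had 412, 382 and 306 CPM in LCA50 cells, against 264, 268 and 224 CPM in LCA10 cells, and rose by 0.54 ± 0.10 (adjusted p 0.00357, edgeR). Mt2 beside it on chromosome 8 had 191, 135 and 120 CPM in LCA50 cells, against 75.5, 95.8 and 62.2 CPM in LCA10 cells, and rose by 0.93 ± 0.19 (adjusted p 0.0170). Neither gene had overlapping groups. Mt1 passed without any single library, and Mt2 did not pass without LCA10 replicate 1 or 3 (adjusted p 0.0907 and 0.107). Both ferritin chains, which store iron, rose: Fth1 had 1979, 2145 and 1950 CPM in LCA50 cells, against 1620, 1795 and 1640 CPM in LCA10 cells (0.27 ± 0.06), and Ftl1 rose by 0.45 ± 0.09. Tfrc, the transferrin receptor that brings iron in, fell by 0.33 ± 0.09 (adjusted p 0.0388), with 307, 310 and 364 CPM in LCA50 cells, against 437, 357 and 444 CPM in LCA10 cells, which overlapped in 1 library, and it missed in 4 of the 6 omissions (up to 0.210). Ftl1, Fth1 and Gclm, a subunit of the enzyme that starts glutathione synthesis (0.52 ± 0.11), were the 3 of 24 NRF2 targets that rose, and none fell (median 0.13). All 3 missed the threshold without LCA10 replicate 3, with adjusted p from 0.0648 to 0.0934 by edgeR. Fth1 also missed without LCA50 replicate 2 or LCA10 replicate 1, and Gclm without LCA50 replicate 1.

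Few lipid genes passed the test, set against 0.918% of all tested genes that fell. Of 24 cholesterol synthesis genes 1 fell, the thiolase Acat2, by 0.46 ± 0.12 (adjusted p 0.0453, edgeR), although all 24 values were below 0 (median -0.38). Its libraries had 52.2, 77.2 and 60.3 CPM in LCA50 cells, against 76.7, 89.5 and 95.7 CPM in LCA10 cells, and overlapped in 1 library. Without LCA50 replicate 1 the median of the list was -0.16 and Acat2 did not pass (adjusted p 0.300, edgeR), as also without LCA50 replicate 3 or LCA10 replicate 2 or 3. Without LCA50 replicate 2, 8 of the list fell. By edgeR, 14 of the 24 had an unadjusted p below 0.05, against 1428 of all 11651 tested genes. In 9 of the 24 every LCA50 library was below every LCA10 library, against 7.34% of all tested genes. LCA50 replicate 1 was the lowest LCA50 library in 23 of the 24. Srebf1, a master regulator of fatty acid synthesis, had 135, 184 and 149 CPM in LCA50 cells, against 223, 195 and 199 CPM in LCA10 cells, and fell by 0.40 ± 0.09 (adjusted p 0.0173). It was the 1 of 16 fatty acid synthesis genes that fell. Of the 16, 9 had an unadjusted p below 0.05 (edgeR) and in 7 every LCA50 library was below every LCA10 library. With Pltp, which transfers phospholipids between lipoproteins (-1.29 ± 0.28), Srebf1 also made up the 2 of 11 liver X receptor targets that fell. Without LCA50 replicate 1 neither passed (Srebf1 -0.30, adjusted p 0.145, and Pltp -0.98, adjusted p 0.0886, edgeR). Srebf1 also missed without LCA50 replicate 3 or LCA10 replicate 1, and Pltp without LCA10 replicate 1 or 3. Exons of Srebf1 and Pltp overlap those of Rai1 and Ctsa on the other strand, and the labels do not say whether counting used strand. The drug and bile acid related transporter Abcb1b fell by 0.57 ± 0.13, the 1 call among 12 bile acid receptor and transport genes, and without LCA50 replicate 1 it stood at -0.36 (adjusted p 0.142); it also missed without LCA10 replicate 1 or 3.

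Few genes of T cell function passed the test, set against 0.463% of all tested genes that rose. Of 23 effector genes 2 rose, the neighbouring cytokines Lta and Tnf. Lta had 640, 437 and 382 CPM in LCA50 cells, against 322, 338 and 285 CPM in LCA10 cells, and rose by 0.63 ± 0.13 (adjusted p 0.0221, edgeR). Tnf had 75.3, 46.7 and 59.7 CPM in LCA50 cells, against 39.1, 43.5 and 40.3 CPM in LCA10 cells, and rose by 0.56 ± 0.15 (adjusted p 0.0453). Neither overlapped, but without LCA50 replicate 1 Tnf stood at 0.38 with an adjusted p of 0.378, and it passed in no omission but that of LCA50 replicate 2. Lta missed without LCA10 replicate 1 or 3 (adjusted p 0.0800 and 0.147). Havcr2, the inhibitory receptor TIM-3, had 25, 30.1 and 36.3 CPM in LCA50 cells, against 13.0, 22.8 and 12.9 CPM in LCA10 cells, and rose by 0.92 ± 0.21 (adjusted p 0.0168), the 1 call among 16 inhibitory receptor genes. It missed without LCA50 replicate 3 or LCA10 replicate 1 or 3 (adjusted p 0.0745 to 0.139). Of 22 STAT5 targets the cytokine brake Cish rose by 0.53 ± 0.13 and the cyclin Ccnd3 by 0.25 ± 0.07. Cish did not pass without LCA50 replicate 1 (0.28, adjusted p 0.111, edgeR) or without any 1 of the LCA10 libraries (up to 0.200). Ccnd3 passed in no omission but that of LCA50 replicate 3 (up to 0.232). None of 28 T cell receptor induced genes passed by edgeR (median 0.10), where 6 had an unadjusted p below 0.05, against 1428 of all 11651 tested genes.

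In the cytoskeleton and adhesion list of 24, 2 rose and 1 fell, against 0.463% and 0.918% of all tested genes. Vim, vimentin, had 1933, 1864 and 1645 CPM in LCA50 cells, against 1368, 1529 and 1368 CPM in LCA10 cells, and rose by 0.35 ± 0.06 (adjusted p 0.00233, edgeR). Enah, an actin regulator, had 19.1, 8.12 and 11 CPM in LCA50 cells, against 4.47, 3.38 and 4.73 CPM in LCA10 cells, and had the highest log2 fold change of the named genes, 1.58 ± 0.36 (adjusted p 0.0170). Its groups were separated, a condition for being named. Without LCA50 replicate 1 it did not pass (1.18, adjusted p 0.195, edgeR), nor without LCA10 replicate 1 or 2. Vim passed without any single library. Tln1, which links integrins to actin, fell by 0.29 ± 0.08 (adjusted p 0.0416), and its exons overlap those of Creb3 on the other strand. It missed without any 1 of the LCA50 libraries and without LCA10 replicate 3, where it stood at -0.18 (adjusted p 0.356, edgeR). The 1 call among 23 endoplasmic reticulum chaperone genes was Herpud1, higher by 0.35 ± 0.09, and among 26 lysosome and autophagy genes Map1lc3b, lower by 0.43 ± 0.11. Herpud1 stood at 0.26 (adjusted p 0.287, edgeR) and Map1lc3b at -0.33 (0.326) without LCA50 replicate 1, and Herpud1 missed in 3 and Map1lc3b in 4 of the 6 omissions.

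Outside the lists, Slc25a33, a mitochondrial pyrimidine nucleotide carrier (chromosome 4, 149744036 to 149774277), had 40.0, 23.4 and 23.2 CPM in LCA50 cells, against 13.4, 12.7 and 11.4 CPM in LCA10 cells. It rose by 1.20 ± 0.22 (adjusted p 0.00357, edgeR) and passed without any single library. Il24, a cytokine of the interleukin-10 family (chromosome 1, 130882074 to 130887454), had 36.0, 37.4 and 40.4 CPM in LCA50 cells, against 13.9, 19.4 and 22.7 CPM in LCA10 cells, a rise of 1.02 ± 0.20 (adjusted p 0.00499). Itih5, a member of the inter-alpha-trypsin inhibitor family, had 0.238, 2.38 and 3.14 CPM in LCA50 cells, against 8.72, 6.75 and 9.27 CPM in LCA10 cells, and fell by 2.03 ± 0.40 (adjusted p 0.00603). Pou6f1, a POU-domain transcription factor, had 6.44, 9.51 and 7.26 CPM in LCA50 cells, against 16.3, 19.4 and 19.9 CPM in LCA10 cells, and fell by 1.25 ± 0.23. The groups overlapped in none of these 4 genes, which was a condition for naming them. Itih5 and Pou6f1 passed without any single library, and Il24 missed without LCA10 replicate 1 (0.85, adjusted p 0.0591, edgeR). The remaining named genes that rose were Acpp, Reep1, Nov, Ikzf4, Ubtd1 and Ly6g5b, from 1.39 ± 0.35 for Acpp to 0.76 ± 0.18 for Ly6g5b, and the other named gene that fell was Tspan2, at -1.55 ± 0.36. Of these, Reep1 missed in 5 of the 6 omissions (adjusted p up to 0.132), Acpp, Ly6g5b, Ubtd1 and Ikzf4 in 4, and Nov and Tspan2 in 3. Ubtd1 stood at 0.38 (adjusted p 0.427), Nov at 0.59 (0.364) and Acpp at 1.18 (0.195) without LCA50 replicate 1. Ikzf4, the transcription factor Eos, was far higher in LCA50 replicate 1, with 59.6 CPM, than in the other LCA50 libraries, with 27.7 and 33 CPM. The LCA10 cells had 22.1, 24.7 and 23.1 CPM. Without LCA50 replicate 1 the change of 0.77 became 0.38 (adjusted p 0.525, edgeR), and the call also ended without any 1 LCA10 library. In scrambled-guide cells Ikzf4 rose by 0.83 ± 0.20 (adjusted p 0.0210, edgeR).

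Lists of core cell functions gave no call by edgeR. These were heat shock (11 tested, median 0.05), glycolysis and hypoxia (30, 0.01), the respiratory chain (29, 0.05), p53 targets (19, 0.16), apoptosis and survival (22, -0.07), DNA replication (28, -0.06), mitosis (30, -0.12) and ribosomal proteins (33, 0.12). Ldha, the enzyme that makes lactate, had 5195, 5674 and 5605 CPM in LCA50 cells, against 5468, 5426 and 5094 CPM in LCA10 cells, with overlap. Rrm2, a ribonucleotide reductase subunit, had 793, 941 and 900 CPM in LCA50 cells, against 866, 890 and 885 CPM in LCA10 cells, also with overlap. At an unadjusted p below 0.05 there were 10 mitosis genes, 6 p53 targets, 5 glycolysis, 4 apoptosis, 3 respiratory chain, 3 ribosomal, 1 heat shock and 0 DNA replication genes. Over all 11651 tested genes, 1428 had an unadjusted p below 0.05. In mitosis 3 of 30 values were above 0, and Top2a stood at -0.13 ± 0.06 and Ccna2 at -0.10 ± 0.07, neither past the threshold. LCA50 replicate 1 was the lowest LCA50 library in 28 of these 30 genes. Among ribosomal proteins 30 of 33 values were above 0.

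**Figure D4:**
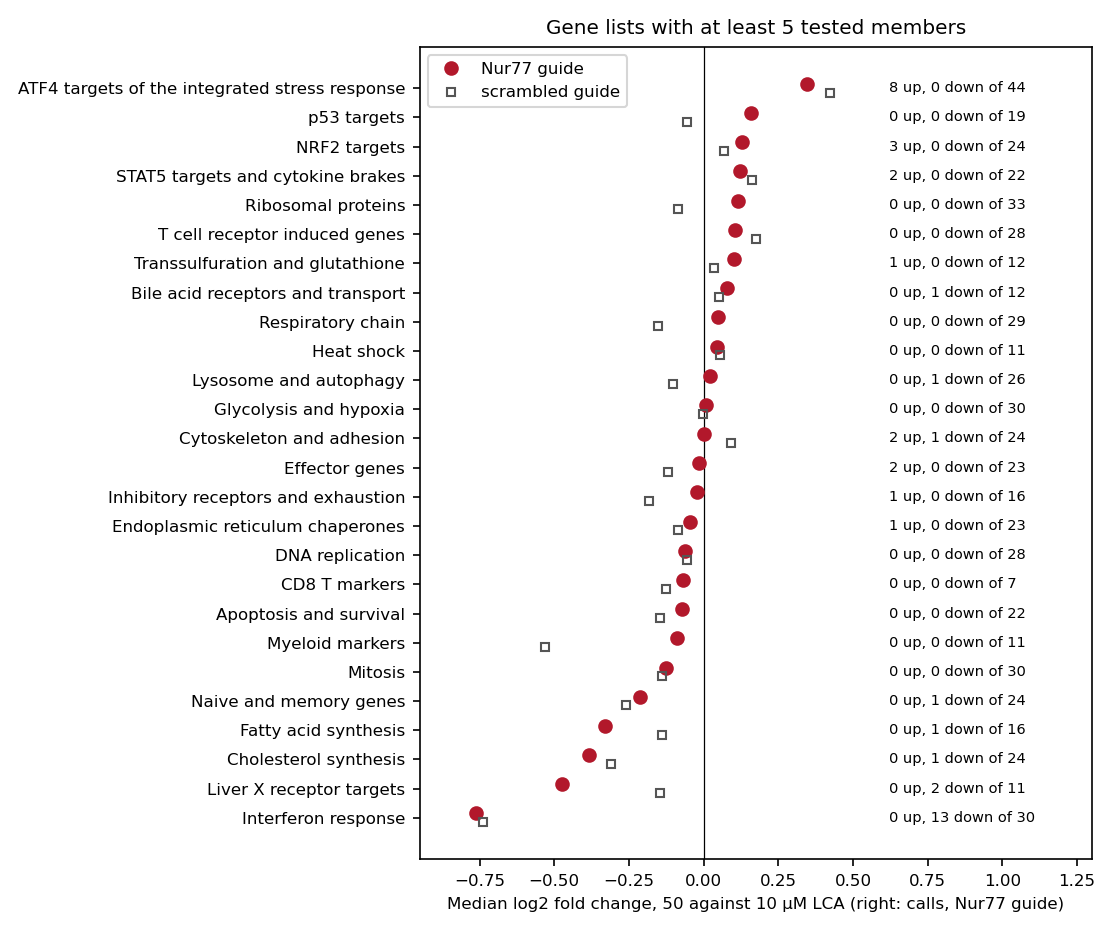
Median log2 fold change between 50 and 10 µM LCA of the 26 gene lists with at least 5 tested members, in Nur77-guide cells (filled circles) and scrambled-guide cells (open squares), with the number of members called in Nur77-guide cells at the right. Interferon response genes have the lowest median with both guides (-0.76 with the Nur77 and -0.74 with the scrambled guide), and ATF4 targets the highest (0.35 with the Nur77 and 0.42 with the scrambled guide).

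The same step in scrambled-guide cells, which shares no library with the Nur77-guide cells, asks whether the change depended on the Nur77 guide. There 264 genes were called (2.27%), 93 higher (0.798%) and 171 lower (1.47%). The guides shared 67 genes called in the same direction, 41.6% of the 161 of the Nur77 guide and 25.4% of the 264 of the scrambled guide, and no gene was called in opposite directions. Of the 161, 159 had the same sign in scrambled-guide cells (98.8%), against 58.4% of all tested genes. The share was higher among genes that fell, where 54 of 107 were also called in scrambled-guide cells, than among those that rose, where 13 of 54 were, and the difference between those shares was not tested. In the interferon list 18 of 30 genes fell in scrambled-guide cells, with a median of -0.74. Rtp4 fell by 0.96 ± 0.17 with the Nur77 guide and by 1.09 ± 0.16 with the scrambled guide, Stat2 by 0.57 ± 0.09 with the Nur77 guide and 0.52 ± 0.09 with the scrambled guide, and Ifi208 by 1.13 ± 0.20 with the Nur77 guide and 1.15 ± 0.19 with the scrambled guide. Asns rose by 0.49 ± 0.09 with the Nur77 guide and by 0.59 ± 0.09 with the scrambled guide.

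A test of the difference itself, the response in Nur77-guide cells minus that in scrambled-guide cells, called no gene by edgeR. There were 819 genes at an unadjusted p below 0.05 and the smallest adjusted p was 0.204; DESeq2 called 1 gene, Cox7a2. Without LCA50 replicate 1, edgeR called 5, which were Ly6a, Cox7a2, S100a10, Ifitm1 and Ifitm2. The 5 genes with the smallest p were Cox7a2, Tysnd1, Tln1, Mboat2 and AA467197, given here as values. Cox7a2, a subunit of cytochrome c oxidase, stood at 0.25 ± 0.08 with the Nur77 guide and at -0.35 ± 0.08 with the scrambled guide, a difference of 0.59 ± 0.12. Mboat2, a lysophospholipid acyltransferase, stood at 1.04 ± 0.36 with the Nur77 guide and -1.11 ± 0.38 with the scrambled guide, a difference of 2.16 ± 0.52. AA467197, which contains the microRNA gene Mir147, differed by 0.49 ± 0.12, Tysnd1, a peroxisomal protease, by -0.67 ± 0.16 and Tln1 by -0.45 ± 0.11. Slc25a33, which rose by 1.20 ± 0.22 with the Nur77 guide, stood at 0.26 ± 0.22 with the scrambled guide (adjusted p 0.625), and its difference of 0.95 ± 0.32 did not pass. The median standard error of a difference between guides was 0.22 on the log2 scale, against 0.15 for the step within Nur77-guide cells.

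**Figure D5:**
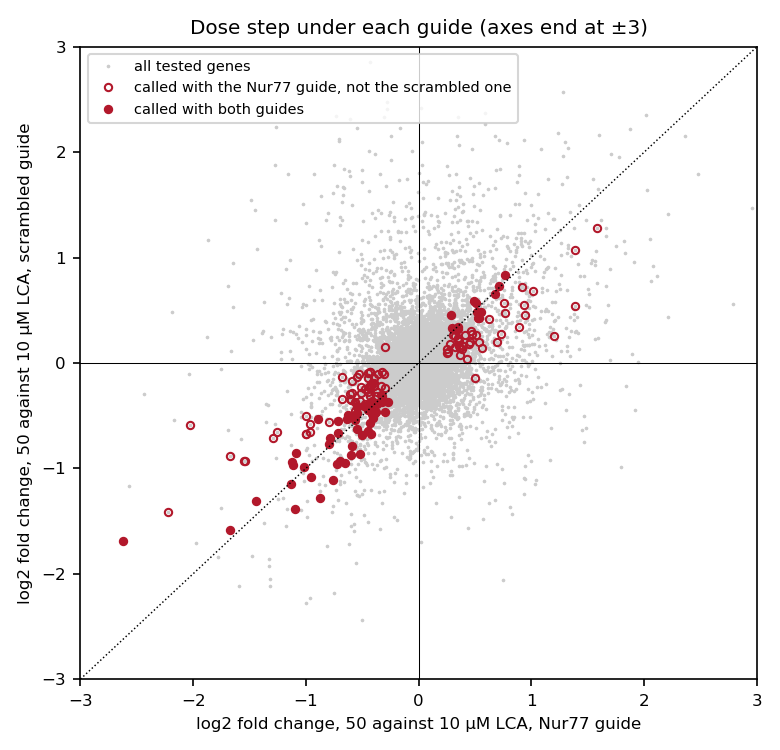
Log2 fold change between 50 and 10 µM LCA of each tested gene in Nur77-guide cells (x axis) and scrambled-guide cells (y axis); 13 tested genes, 1 of them called, lie outside the axes. Filled circles are the 67 genes called with both guides, open circles those called with the Nur77 guide and not with the scrambled guide, and 159 of the 161 lie in a quadrant where both changes have the same sign.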

How the data were processed

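Gene counts of 18 libraries, deposited by the authors as 1 table of whole numbers, are raw counts per gene, per the labels and the values. The submitters' processing notes name STAR, HOMER, DESeq2 and the builds GRCm38 and mm10. Those notes give no settings or versions, and the sources used here are silent on annotation and strand. The libraries come from an ultra-low-input cDNA kit without stated molecular identifiers, so precision reflects counting and library spread only.

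All values here were computed from those counts with R 4.3.3, edgeR 4.0.16 and limma 3.58.1, with DESeq2 1.42.0 as an alternative. Genes were kept by edgeR's filterByExpr over 6 groups, scaled by TMM, and tested with a robust quasi-likelihood fit of 6 group means over all 18 libraries, adjusted by Benjamini-Hochberg at 0.05. CPM, counts scaled to 1000000, use the scaled library sizes; summed marker and receptor values use the total counts. On simulated counts of 11452 genes, the fit for 50 against 10 µM LCA recovered 37 of 50 genes changed 1.5-fold and 49 of 50 changed 2-fold. There 16 of 201 calls were genes left unchanged. Changes below 1.5-fold were not simulated, although many called genes changed less. The median log2 fold change of called genes was 0.49 for those that rose and -0.54 for those that fell.

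Named genes are the 12 highest and the 12 lowest among called genes with a mean of at least 5 CPM, no overlap between groups and a name other than a predicted one, up to 3 called members each way of a list, the 2 most abundant members of a list without calls, and the 5 genes with the smallest p for the difference between guides. Other genes named were chosen after their values were seen. The members, the 30 gene lists and the comparison were chosen with earlier results of these data known. Coordinates are from GENCODE M21 (23828 of 24537 symbols matched) and promoters from RefSeq GRCm38.p6. Exons of Adar, Ccnd3, Map1lc3b, Pml and Tspan2 also overlap those of another gene on the other strand, and counting may not have used strand.

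Alternatives were DESeq2, its size factors, no filter, a minimum of 5 CPM, a replicate block, only the compared groups, edgeR's glmTreat at a log2 fold change of 0.5, a background covariate, leaving out Rn45s and Lars2, and leaving out each library. Some items that the naming rule covers are not reported here.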

Additional observations from a re-analysis of the deposited data

How the results depend on the processing

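The 161 genes called between LCA50 and LCA10 Nur77-guide cells became 325 without a filter on low counts (159 of them shared), 28 with only the compared libraries in the fit (26 shared), and 0 when edgeR tested against a log2 fold change of 0.5; DESeq2 called 239. Leaving out 1 library gave 60 to 271: 73 without LCA50 replicate 1, 271 without LCA50 replicate 2, 60, 105 and 97 without LCA10 replicates 1, 2 and 3. The fits without 1 library or with only the compared libraries hold fewer libraries, and the fit without a filter holds more genes. Why the counts differed between settings was not tested. The 264 of scrambled-guide cells became 448 without a filter and 485 with only compared libraries, and 75 to 363 without 1 library (75 and 87 without scrambled-guide LCA50 replicates 2 and 3, 155 and 89 without LCA10 replicates 2 and 3). The difference between guides gave 1 by DESeq2, 2 without a filter and 0 to 5 without 1 library. LCA10 against control gave 65 by DESeq2, 103 without a filter, 123 with only compared libraries and 6 to 45 without 1 library (6 without LCA10 replicate 2, 17 and 10 without control replicates 2 and 3). LCA50 against control gave 372 with only compared libraries and 384 to 814 without 1 library (435 without LCA50 replicate 1, 475, 428 and 384 without control replicates 1, 2 and 3).

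No pairing by replicate number was seen: deviations of libraries with the same number correlated at -0.08, -0.04 and 0.02. Those of LCA50 and LCA10 libraries with different numbers correlated at -0.05 to 0.07. With 3 libraries in each group this cannot exclude shared mice or cultures. A replicate block gave 147 calls, and with only the compared libraries, an alternative added after seeing the data, 25. Of 76 named genes 66 kept their direction and side of the threshold under the block, 76 under DESeq2, 41 with only the compared libraries, 38 with block and compared libraries, 32 against a log2 fold change of 0.5, and 45 to 65 without 1 library (45 without LCA50 replicate 1, 46 and 49 without LCA10 replicates 1 and 3). Some uncalled genes changed sign. Nr4a1 stood at -0.0055 without a filter, -0.022 with the block, -0.051 with the covariate and -0.048 with block and compared libraries. Hsp90ab1 stood at -0.0032 and Atp5b at -0.0099 without a filter, Rrm2 at 0.00061 with a minimum of 5 CPM and 0.018 with the covariate, and Cd68 at -0.014 and Itga2b at 0.043 with block and compared libraries. Without 1 library, Nr4a1 ranged over -0.44 to 0.21, Hsp90ab1 -0.047 to 0.087, Atp5b -0.017 to 0.018, Ccng1 -0.085 to 0.37, Rrm2 -0.058 to 0.066, Rps3 -0.0072 to 0.18, Lck -0.21 to 0.013, Cd8b1 -0.11 to 0.029, Cd68 -0.52 to 0.39, Pf4 -2.78 to 0.20, Itga2b -0.61 to 1.08 and Tysnd1 -0.17 to 0.044.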

Other observations

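Outside the lists and families, other interferon-induced genes were among the 107 that fell in LCA50 against LCA10 Nur77-guide cells; they were chosen here after their values were seen. Pml, the scaffold of nuclear bodies, had the smallest adjusted p of all genes, 2.05e-05 by edgeR, with 122, 166 and 181 CPM in LCA50 cells, against 258, 266 and 287 CPM in LCA10 cells, a fall of 0.79 ± 0.10. Xaf1, a pro-apoptotic partner of inhibitor of apoptosis proteins, fell by 0.70, Helz2, a nuclear helicase, by 0.68, Herc6, the mouse ligase for Isg15, by 0.71, and Ube2l6, the conjugating enzyme for Isg15, by 0.97. Of these 5, Ube2l6 missed without LCA10 replicate 1 (adjusted p 0.0550, edgeR), and the others passed without any single library.

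A pair of receptor genes, also chosen after their values were seen, were higher. Tnfrsf9, the receptor 4-1BB, had 990, 771 and 793 CPM in LCA50 cells, against 680, 638 and 529 CPM in LCA10 cells, and rose by 0.47 ± 0.09 (adjusted p 0.00714, edgeR). Tnfrsf18, the receptor GITR, had 429, 332 and 301 CPM in LCA50 cells, against 276, 288 and 247 CPM in LCA10 cells, and rose by 0.39 (adjusted p 0.0195). In both genes the groups did not overlap and LCA50 replicate 1 was the highest library. Tnfrsf9 passed without any single library, and Tnfrsf18 missed in 3 of the 6 omissions (adjusted p up to 0.246, edgeR).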
